A study of Mus musculus with 4 samples.

Results

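The 9 genes described here carry the Wnt signal between cells, and were followed through the cell types of mouse liver: the ligands Wnt2 and Wnt9b, the R-spondin Rspo3, the Frizzled receptors Fzd4, Fzd5 and Fzd8, the coreceptors Lrp5 and Lrp6, and the R-spondin receptor Lgr4. They were chosen by name as ligands and receptors of the pathway, with earlier results of these data known. They are 9 of the 25092 mouse genes with at least 1 molecule in a kept nucleus. Each was measured by single-nucleus RNA sequencing, which counts the RNA molecules captured from each nucleus by their unique molecular identifiers (UMIs). A level is given in CPM, the UMIs of a gene scaled to the usual common total by the UMIs of all mouse genes, summed over the nuclei of a class in a library. The second measure is the share of nuclei with at least 1 UMI of the gene.

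The libraries were made from frozen livers of Bl/6 mice, 1 library for each of 4 groups. All mice received a hydrodynamic tail-vein injection with a Sleeping Beauty transposase system, which inserts the delivered genes into the genome of hepatocytes. The diet was chow (CD) or a low-protein diet (LPD), given from 1 week before the injection until 2 weeks after it. Per the study, the oncogene groups received human c-MET and a β-catenin that lacks its N-terminal end, and the controls a vector without them. The labels of the libraries name only the diet and control or oncogene. The number of mice behind a library is not given in the sources used here. The values of the libraries are given throughout with CD before LPD and, within a diet, control before oncogene, and each library is called by its label. With 1 library per group no group has a replicate, no test was run, and every interval is a 95% interval that covers counting error only. An exact permutation test could not go below p = 0.125 for ratios within the 4 libraries, or below p = 0.333 for the LPD against the CD libraries, both two-sided.

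The human transgenes did not follow the CD labels. They gave 100 UMIs in 90 nuclei of the library labelled CD control, 0 UMIs in that labelled CD oncogene, 0 in that labelled LPD control and 6 in 6 nuclei of that labelled LPD oncogene. By the study's text the CD control library had more nuclei than the CD oncogene library, and by the labels it had fewer. Any direction between the 2 CD libraries is therefore a direction between labels. The libraries kept 9825 to 12552 nuclei with a median of 1762 to 3807 UMIs, and pairs of libraries shared 16 to 35 barcodes. The LPD libraries were shallower than the CD libraries, and mitochondrial RNA made up 0.271% and 0.317% of the UMIs of their hepatocyte nuclei against 5.41% and 3.29% in the CD libraries. Diet, depth and the preparation of a library cannot be told apart.

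Wnt proteins are short-range signals that bind a Frizzled receptor together with Lrp5 or Lrp6 and thereby keep β-catenin from being degraded. R-spondins bind Lgr receptors and the ligases Znrf3 and Rnf43, which otherwise remove Frizzled receptors from the cell surface, so that a cell responds more strongly to Wnt. In the liver, Wnt2, Wnt9b and Rspo3 are known as signals made by endothelial and mesenchymal cells around the central vein, and the hepatocytes there answer with pericentral genes such as Glul, the glutamine synthetase gene.

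The genes differ much in structure, which bears on how well nuclear RNA reports them. In the annotation of build GRCm38, Wnt2 (ENSMUSG00000010797, chr6:17988940-18030585), Wnt9b (ENSMUSG00000018486, chr11:103727364-103749821), Rspo3 (ENSMUSG00000019880, chr10:29452416-29535867), Fzd5 (ENSMUSG00000045005, chr1:64730558-64737751), Lrp5 (ENSMUSG00000024913, chr19:3584828-3686564) and Lrp6 (ENSMUSG00000030201, chr6:134446476-134566965) lie on the minus strand. Fzd4 (ENSMUSG00000049791, chr7:89404355-89413134) and Lgr4 (ENSMUSG00000050199, chr2:109917647-110014257) lie on the plus strand. Lrp5, Lrp6 and Lgr4 span 102, 120 and 96.6 kb with up to 23, 23 and 18 exons, whereas Fzd4, Fzd5 and Fzd8 (ENSMUSG00000036904) span 8.78, 7.19 and 5.97 kb with up to 2, 2 and 1 exons. The sources used here do not say if intronic reads were counted, and levels were compared between classes and libraries and never between genes.

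The promoters of 4 of the genes are shown because the results below turn on where these genes were on: Wnt2 and Wnt9b in endothelial nuclei, Fzd4 in the same nuclei, and Lgr4 in hepatocytes. The letters come from RefSeq on build GRCm38.p6, run 5′ to 3′ towards the gene, and cover the bases before the more upstream of the starts that RefSeq and GENCODE give. Of 250 bases, this left 110 for Wnt2 (chr6:18030586-18030695, minus strand), 250 for Wnt9b (chr11:103749822-103750071, minus strand), 239 for Fzd4 (chr7:89404116-89404354, plus strand) and 250 for Lgr4 (chr2:109917397-109917646, plus strand). Capitals mark the letters GGAA, the core bound by ETS factors that act in endothelial cells, on either strand.
Wnt2: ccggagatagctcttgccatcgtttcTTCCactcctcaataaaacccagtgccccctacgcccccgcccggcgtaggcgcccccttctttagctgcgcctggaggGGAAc
Wnt9b: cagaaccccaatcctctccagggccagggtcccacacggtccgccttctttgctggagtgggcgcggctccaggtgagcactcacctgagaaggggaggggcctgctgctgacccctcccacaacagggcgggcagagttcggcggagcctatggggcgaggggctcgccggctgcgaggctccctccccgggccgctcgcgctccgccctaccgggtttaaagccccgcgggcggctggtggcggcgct
Fzd4: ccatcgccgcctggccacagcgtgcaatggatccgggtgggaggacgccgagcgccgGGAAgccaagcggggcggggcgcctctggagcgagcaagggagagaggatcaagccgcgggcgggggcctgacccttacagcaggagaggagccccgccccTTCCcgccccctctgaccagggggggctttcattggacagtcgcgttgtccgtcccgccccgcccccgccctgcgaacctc
Lgr4: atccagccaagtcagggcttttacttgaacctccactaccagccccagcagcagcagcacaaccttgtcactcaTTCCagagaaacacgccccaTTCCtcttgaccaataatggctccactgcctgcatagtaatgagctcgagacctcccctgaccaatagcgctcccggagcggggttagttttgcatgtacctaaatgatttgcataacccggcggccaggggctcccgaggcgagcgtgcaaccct

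The stretches held 2 matches of GGAA in Wnt2, 0 in Wnt9b, 2 in Fzd4 and 2 in Lgr4. In the whole 250 bases Wnt2 held 4, and the other 3 genes had the same counts as in their stretches. Of 32851 promoters, 93.4% hold at least 1 in these 250 bases. GATAA, the letters bound by GATA factors, occurs in 22.6% of them. In the whole 250 bases before the RefSeq start it was found 2 times for Wnt2, outside the stretch shown, and 0 times for Wnt9b, Fzd4 and Lgr4. The TCF/LEF letters CTTTGA and CTTTGT, through which β-catenin acts, occur in 13.8% and 16.5% of promoters and in none of the 4 windows. Such matches describe letters and not bound sites.

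Nuclei were placed in classes by marker genes that include none of the 9 genes. Hepatocytes gave 6212, 7198, 5843 and 4555 nuclei and sinusoidal endothelial nuclei, from the capillaries of the liver, 718, 531, 643 and 1023. Stellate nuclei, from the pericytes beside the sinusoids, numbered 270, 391, 320 and 142, and Kupffer nuclei, from the resident macrophages, 136, 164, 271 and 655. T and NK, B and cholangiocyte nuclei also reached 50 in every library. Vascular endothelial nuclei, from veins and arteries, numbered 25, 24, 59 and 68, so their values rest on few nuclei. The 2469, 3682, 2312 and 2972 nuclei that met no class, or more than 1, were left out. Hepatocyte markers did not keep a nucleus out of another class.

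RNA of hepatocytes reached all classes. The 8 hepatocyte markers summed to 12467 to 15037 CPM in hepatocytes, 9522 to 12044 CPM in sinusoidal endothelial nuclei, 8495 to 10465 CPM in Kupffer nuclei and 8204 to 9137 CPM in stellate nuclei. A level of a hepatocyte gene in another class thus contains RNA from hepatocytes, and its part in the results was not tested.

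Wnt2 was a gene of endothelial nuclei in all 4 libraries. Its level in sinusoidal endothelial nuclei was 57.6 (46.2 to 70.9), 20 (11.8 to 31.5), 84.9 (65.4 to 108) and 205 CPM (180 to 232), from 88, 18, 64 and 249 UMIs. The intervals of the libraries overlap only between CD control and LPD control, and the library labelled LPD oncogene was the highest and that labelled CD oncogene the lowest. Hepatocyte nuclei held 0.549, 0.262, 0.298 and 0.642 CPM, so that the sinusoidal level was 105-fold (65.1 to 176), 76.2-fold (34.7 to 173), 285-fold (116 to 908) and 319-fold (165 to 706) higher. In vascular endothelial nuclei Wnt2 stood at 59.5 CPM from 2 UMIs, 0 from 0, 89.3 CPM from 6 and 201 CPM from 18, and in each of the 3 libraries with UMIs the interval of the ratio to the sinusoidal level includes 1. Stellate, Kupffer, T and NK and B nuclei gave at most 2 UMIs each in a library, and cholangiocytes none.

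Few sinusoidal nuclei showed a Wnt2 molecule. The share with a UMI was 9.19%, 3.01%, 8.55% and 19.7% at median depths of 1309, 1147, 808 and 875 UMIs. In hepatocytes it was 0.338%, 0.167%, 0.0856% and 0.198% at median depths of 5440, 4739, 2499 and 2643 UMIs. When every nucleus was thinned to 500 UMIs, the sinusoidal shares were 3.76%, 1.13%, 4.2% and 10.5%, in the same order of libraries as the levels.

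Wnt9b followed the vessels rather than the sinusoids, on very few molecules. Vascular endothelial nuclei held 3, 2, 8 and 18 UMIs, or 89.2, 55.4, 119 and 201 CPM, and sinusoidal nuclei 3, 1, 2 and 7 UMIs, or 1.96, 1.11, 2.65 and 5.76 CPM. The vascular level was 45.5-fold (6.09 to 340), 50-fold (2.6 to 2948), 44.9-fold (8.96 to 434) and 34.8-fold (13.9 to 98.6) higher, with every interval above 1. All other classes together gave 4 UMIs, of which hepatocytes had 1, 1, 1 and 0.

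Rspo3, the R-spondin known from the central vein, was high in 2 classes. In stellate nuclei it stood at 542 (481 to 608), 438 (393 to 487), 677 (604 to 756) and 940 CPM (803 to 1093), from 290, 341, 311 and 168 UMIs. Hepatocytes held 0.799, 1.37, 0.834 and 0.856 CPM, so the stellate level was 678, 319, 811 and 1098 times as high. A UMI of Rspo3 was seen in 50%, 41.2%, 51.9% and 50.7% of stellate nuclei at median depths of 1714, 1581, 1117 and 1057 UMIs, against 0.24% to 0.834% of the deeper hepatocyte nuclei. Thinned to 500 UMIs the stellate shares were 22.2%, 15.9%, 28.4% and 35.9%.

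Vascular endothelial nuclei were the second Rspo3 class, and the one in which the libraries differed most. They held 416 (228 to 699), 194 (77.9 to 399), 2219 (1877 to 2605) and 2685 CPM (2357 to 3046), from 14, 7, 149 and 241 UMIs. The vascular level lay above the stellate level in the LPD libraries, at 3.28-fold (2.68 to 4) and 2.86-fold (2.34 to 3.5), and not in the CD libraries, at 0.768-fold (0.415 to 1.31) and 0.443-fold (0.177 to 0.922). In the CD libraries 3 of 25 and 3 of 24 vascular nuclei held all of these UMIs, and in the LPD libraries 29 of 59 and 35 of 68. Sinusoidal nuclei stood far lower, at 15, 24.4, 81 and 190 CPM, and the vascular level was 27.7, 7.95, 27.4 and 14.1 times as high.

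**Figure D1:**
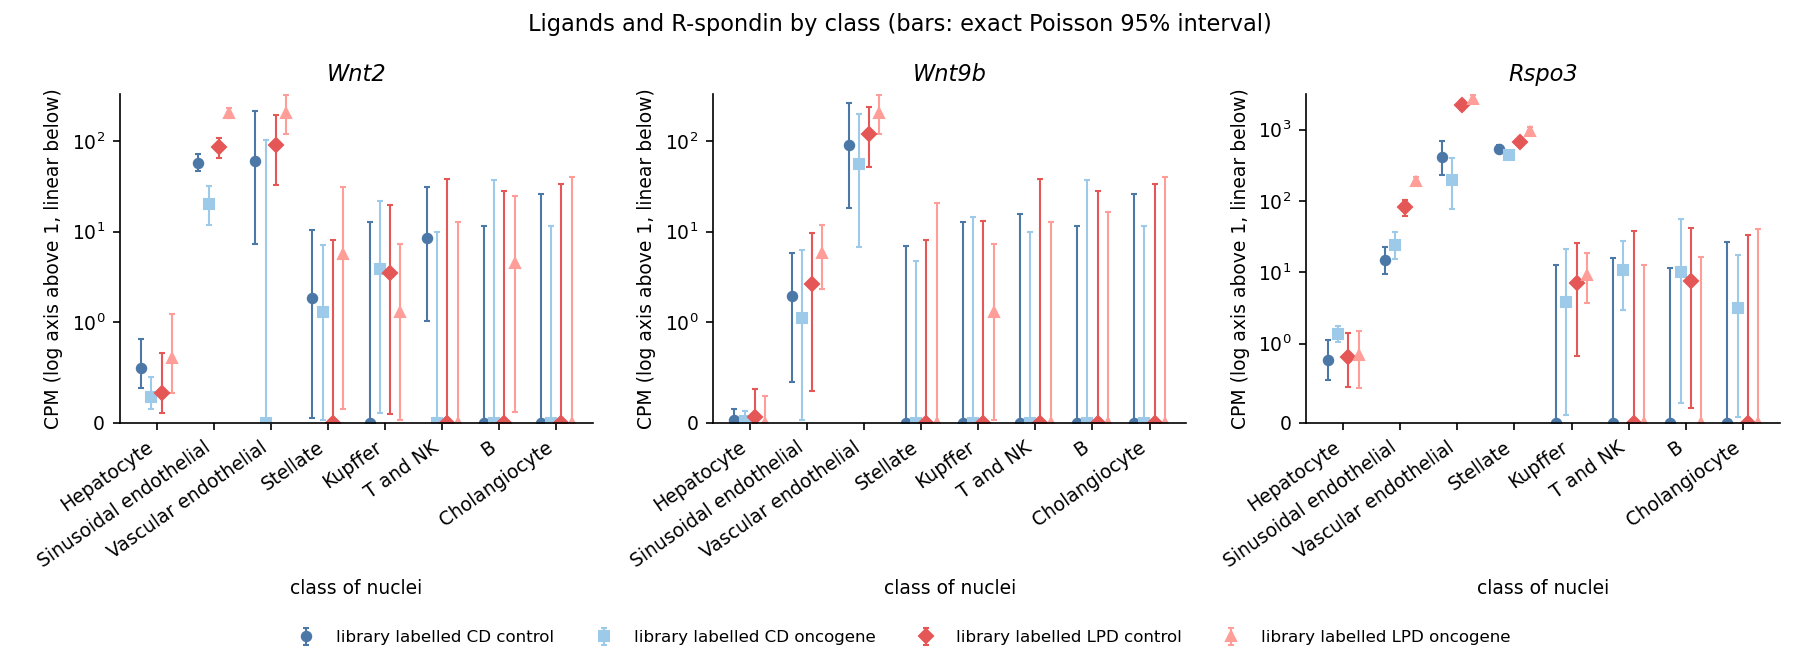
Level in CPM (log axis above 1, linear below) of Wnt2, Wnt9b and Rspo3 in 8 classes of nuclei, with 1 point per library and exact Poisson 95% intervals as bars. Wnt2 stands out in the 2 endothelial classes, Wnt9b in vascular endothelial nuclei and Rspo3 in stellate and vascular endothelial nuclei, where the LPD points at 2219 and 2685 CPM lie above the CD points at 416 and 194 CPM.

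Sinusoidal nuclei with an Rspo3 molecule held a Wnt2 molecule more often than the rest. Of the 18, 14, 25 and 58 sinusoidal nuclei with an Rspo3 UMI, 22.2%, 14.3%, 16% and 43.1% also held a Wnt2 UMI. Of those without one, 8.86%, 2.71%, 8.25% and 18.3% did, and the intervals of the 2 shares were apart only in the library labelled LPD oncogene. Nuclei with Rspo3 were also the deeper ones, with median depths of 1938, 2618, 902 and 1004 UMIs against 1302, 1137, 807 and 871, and the part of depth in this was not tested. They held a vascular marker in 11.1%, 42.9%, 20% and 12.1% of cases, against 5.14%, 7.74%, 3.88% and 3.52% of the others, and stellate nuclei held one in 15.2% to 30.4% of cases. The part of stray RNA in these shares was not tested. The most Rspo3 UMIs in a sinusoidal nucleus were 3, 4, 8 and 16.

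The position of an endothelial nucleus along the lobule was read from other genes: Kit, Thbd and Cdh13 mark the pericentral side, and Dll4, Efnb2, Ntn4, Adam23, Msr1 and Ltbp4 the periportal side. Of the sinusoidal nuclei, 146, 62, 180 and 297 were pericentral-marked and 400, 283, 322 and 556 periportal-marked. Wnt2 and Rspo3 lay on the pericentral side in each library, and Wnt9b gave too few UMIs in these nuclei to tell. Wnt2 reached 95.3, 61.8, 116 and 351 CPM in pericentral-marked and 35.2, 7.25, 49.6 and 132 CPM in periportal-marked nuclei. The ratios were 2.7 (1.64 to 4.47), 8.53 (2.17 to 39.7), 2.34 (1.23 to 4.52) and 2.66 (2.01 to 3.52), so Wnt2 was also present on the periportal side.

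Rspo3 was steeper than Wnt2 along the same axis in the LPD libraries. Pericentral-marked sinusoidal nuclei held 29.1, 97.2, 252 and 574 CPM and periportal-marked nuclei 10.7, 12.7, 18.3 and 10.5 CPM. The ratios were 2.73 (1.05 to 7.16), 7.66 (2.71 to 23.3), 13.8 (6.23 to 36) and 54.6 (26 to 137). The library labelled LPD oncogene thus held 211 of its 231 sinusoidal Rspo3 UMIs in pericentral-marked nuclei, and the periportal-marked nuclei of all libraries gave 7 to 10 UMIs each. Wnt9b gave 3, 1, 2 and 4 UMIs in pericentral-marked and 0, 0, 0 and 2 in periportal-marked sinusoidal nuclei.

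In vascular endothelial nuclei the same markers separated the Rspo3 signal. The 12, 7, 37 and 40 pericentral-marked nuclei held 937, 630, 3178 and 4002 CPM, and the 9, 10, 14 and 20 periportal-marked nuclei 0 UMIs, 0 UMIs, 163 CPM and 900 CPM. With a floor of 3 counts in each library the level was at least 4.42-fold and at least 3.31-fold higher in the CD libraries, and it was 19.5-fold (5.3 to 162) and 4.45-fold (2.93 to 7.03) higher in the LPD libraries. Pericentral-marked nuclei made up 48%, 29.2%, 62.7% and 58.8% of the class, and in them alone the LPD libraries were still above the CD libraries. The pericentral endothelial markers of the whole class summed to 1636, 803, 3053 and 3186 CPM, in the same order of libraries as its Rspo3. Their part in the Rspo3 difference was not tested. All Wnt9b UMIs of the class but 1 came from pericentral-marked nuclei.

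**Figure D2:**
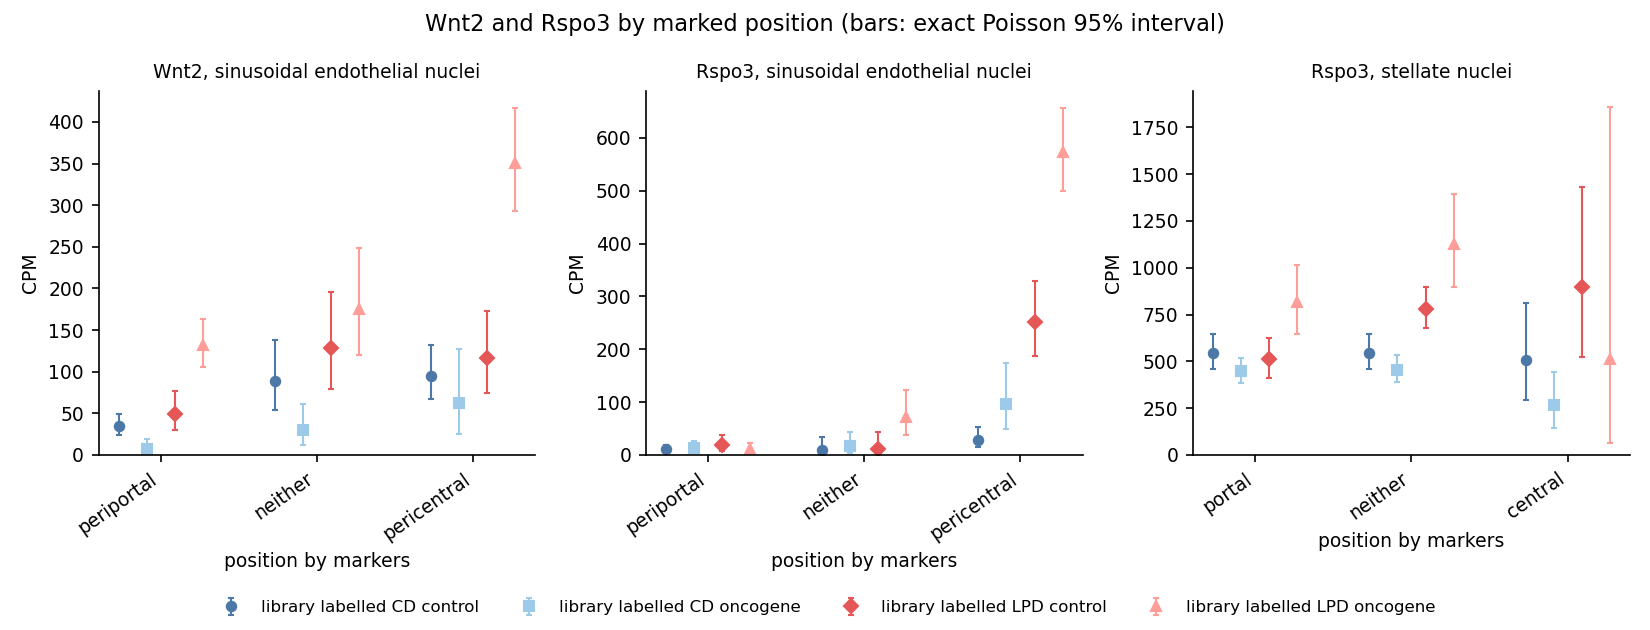
Level in CPM of Wnt2 and Rspo3 in sinusoidal endothelial nuclei marked as periportal, as neither or as pericentral, and of Rspo3 in stellate nuclei with portal, neither or central markers, with 1 point per library and exact Poisson 95% intervals as bars. In sinusoidal nuclei both genes lie higher on the pericentral side in each library, Rspo3 at 29.1 to 574 CPM against 10.5 to 18.3 CPM, while the stellate points have no common slope.

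Across all genes tested in these sinusoidal nuclei, 6.64% were higher on the pericentral side in all 4 libraries, and Wnt2, Rspo3 and Lrp5 were among them. For Lrp5 the levels were 180, 150, 160 and 161 CPM against 120, 112, 99.2 and 125 CPM, and the interval of the ratio excluded 1 only in the library labelled CD control. An axis of Rspo3 in stellate nuclei was not resolved. Nuclei with central stellate markers held 505, 265, 895 and 514 CPM and those with portal stellate markers 544, 446, 510 and 815 CPM, with every interval of the ratio including 1. The central values rest on 17, 14, 17 and 2 UMIs.

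Fzd4 is a Frizzled receptor known from endothelial cells. It stood at 28.1, 25.5, 34.5 and 51.8 CPM in sinusoidal endothelial nuclei, from 43, 23, 26 and 63 UMIs, and at 10.3, 12.9, 10.9 and 9.56 CPM in hepatocytes, from 413, 591, 183 and 134 UMIs. The sinusoidal level was 2.73-fold (1.94 to 3.74), 1.98-fold (1.24 to 3), 3.17-fold (2.01 to 4.79) and 5.42-fold (3.95 to 7.37) higher. Vascular endothelial nuclei held 29.7, 27.7, 44.7 and 55.7 CPM from 1, 1, 3 and 5 UMIs, which does not separate them from sinusoidal nuclei. Stellate, Kupffer, T and NK, B and cholangiocyte nuclei gave 9 UMIs or fewer in every library.

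Fzd5 and Fzd8, 2 further Frizzled receptors, were counted almost entirely in hepatocytes, which hold most of the UMIs of a library. Fzd5 stood there at 4.27, 3.64, 3.87 and 3 CPM from 171, 167, 65 and 42 UMIs, and Fzd8 at 6.49, 4.52, 3.75 and 2.5 CPM from 260, 207, 63 and 35 UMIs. In every other class both genes gave at most 4 UMIs in a library. The ratio to hepatocytes had an interval that excluded 1 for Fzd8 in sinusoidal nuclei of the library labelled CD control, at 0.302 (0.0619 to 0.893) on 3 UMIs. For Fzd8 in the sinusoidal nuclei of the other libraries it ran from 0.707 to 1.32, with intervals that include 1. In stellate nuclei the Fzd8 ratio was 1.15, 0.853, 1.74 and 4.48, with every interval including 1. The counts thus do not show a higher level of Fzd8 in hepatocytes than in stellate nuclei. Of the nuclei of hepatocytes, 0.922% to 2.64% showed Fzd5 and 0.746% to 4.07% showed Fzd8, with the lower shares in the shallower LPD libraries.

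Lrp5 was highest in Kupffer nuclei among the classes with at least 50 nuclei. Its level there was 246 (192 to 311), 263 (204 to 333), 266 (209 to 333) and 217 CPM (186 to 253), with overlapping intervals, from 71, 68, 76 and 167 UMIs. Sinusoidal nuclei followed at 141, 117, 115 and 130 CPM, stellate nuclei at 89.7, 127, 124 and 123 CPM and hepatocytes at 58.1, 108, 61.1 and 83 CPM, and hepatocytes were the lowest of these 3 classes in each library while the other two changed places. B nuclei were lowest, at 18.9, 20, 15.2 and 17.9 CPM from 2 to 6 UMIs. The Kupffer level was 4.24, 2.43, 4.35 and 2.62 times the hepatocyte level and 1.74, 2.24, 2.3 and 1.67 times the sinusoidal level, with all 8 intervals above 1. Thinned to 500 UMIs, 12.5%, 13.4%, 14% and 10.7% of Kupffer nuclei showed Lrp5 against 3.09%, 4.33%, 2.94% and 3.93% of hepatocytes.

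Lrp6, its close relative, was counted in every class. Hepatocytes held 224, 302, 212 and 201 CPM, sinusoidal nuclei 253, 221, 247 and 192 CPM, Kupffer nuclei 326, 379, 266 and 213 CPM and stellate nuclei 187, 164, 187 and 207 CPM. T and NK nuclei held 132, 184, 163 and 175 CPM and B nuclei 104, 200, 159 and 107 CPM. The sinusoidal level was 1.13 (1.02 to 1.25), 0.73 (0.632 to 0.84), 1.16 (1 to 1.35) and 0.953 (0.83 to 1.09) times that of hepatocytes, so that the libraries gave opposite directions. The Kupffer level was 1.46 (1.18 to 1.79), 1.25 (1.02 to 1.53), 1.25 (0.986 to 1.57) and 1.06 (0.901 to 1.24) times that of hepatocytes. The values for B nuclei were 0.465 (0.32 to 0.653), 0.661 (0.404 to 1.02), 0.752 (0.465 to 1.15) and 0.533 (0.341 to 0.795) times, and for T and NK nuclei 0.588 (0.399 to 0.836), 0.608 (0.472 to 0.772), 0.771 (0.44 to 1.25) and 0.869 (0.646 to 1.15) times. In stellate nuclei the interval lay below 1 in the library labelled CD oncogene, at 0.544 (0.454 to 0.648) times, and included 1 in the other libraries.

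Lgr4, the R-spondin receptor of the liver parenchyma, was highest in hepatocytes, at 213 (208 to 217), 337 (332 to 343), 242 (234 to 249) and 243 CPM (235 to 251). Cholangiocytes, the cells of the bile ducts, came next at 184, 198, 199 and 173 CPM, and their interval was below that of hepatocytes only in the library labelled CD oncogene. Sinusoidal nuclei held 117, 175, 87.6 and 87.2 CPM, stellate nuclei 89.7, 112, 89.2 and 89.5 CPM, Kupffer nuclei 79.8, 135, 45.5 and 61.2 CPM and B nuclei 41, 89.8, 75.9 and 58.1 CPM. Hepatocytes stood 1.82-, 1.93-, 2.76- and 2.79-fold above sinusoidal, 2.37-, 3.02-, 2.71- and 2.71-fold above stellate and 2.67-, 2.5-, 5.32- and 3.97-fold above Kupffer nuclei. Of the 7 classes with at least 50 nuclei, the level was highest in the library labelled CD oncogene in all but cholangiocytes, where that library held 198 CPM and LPD control 199 CPM.

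**Figure D3:**
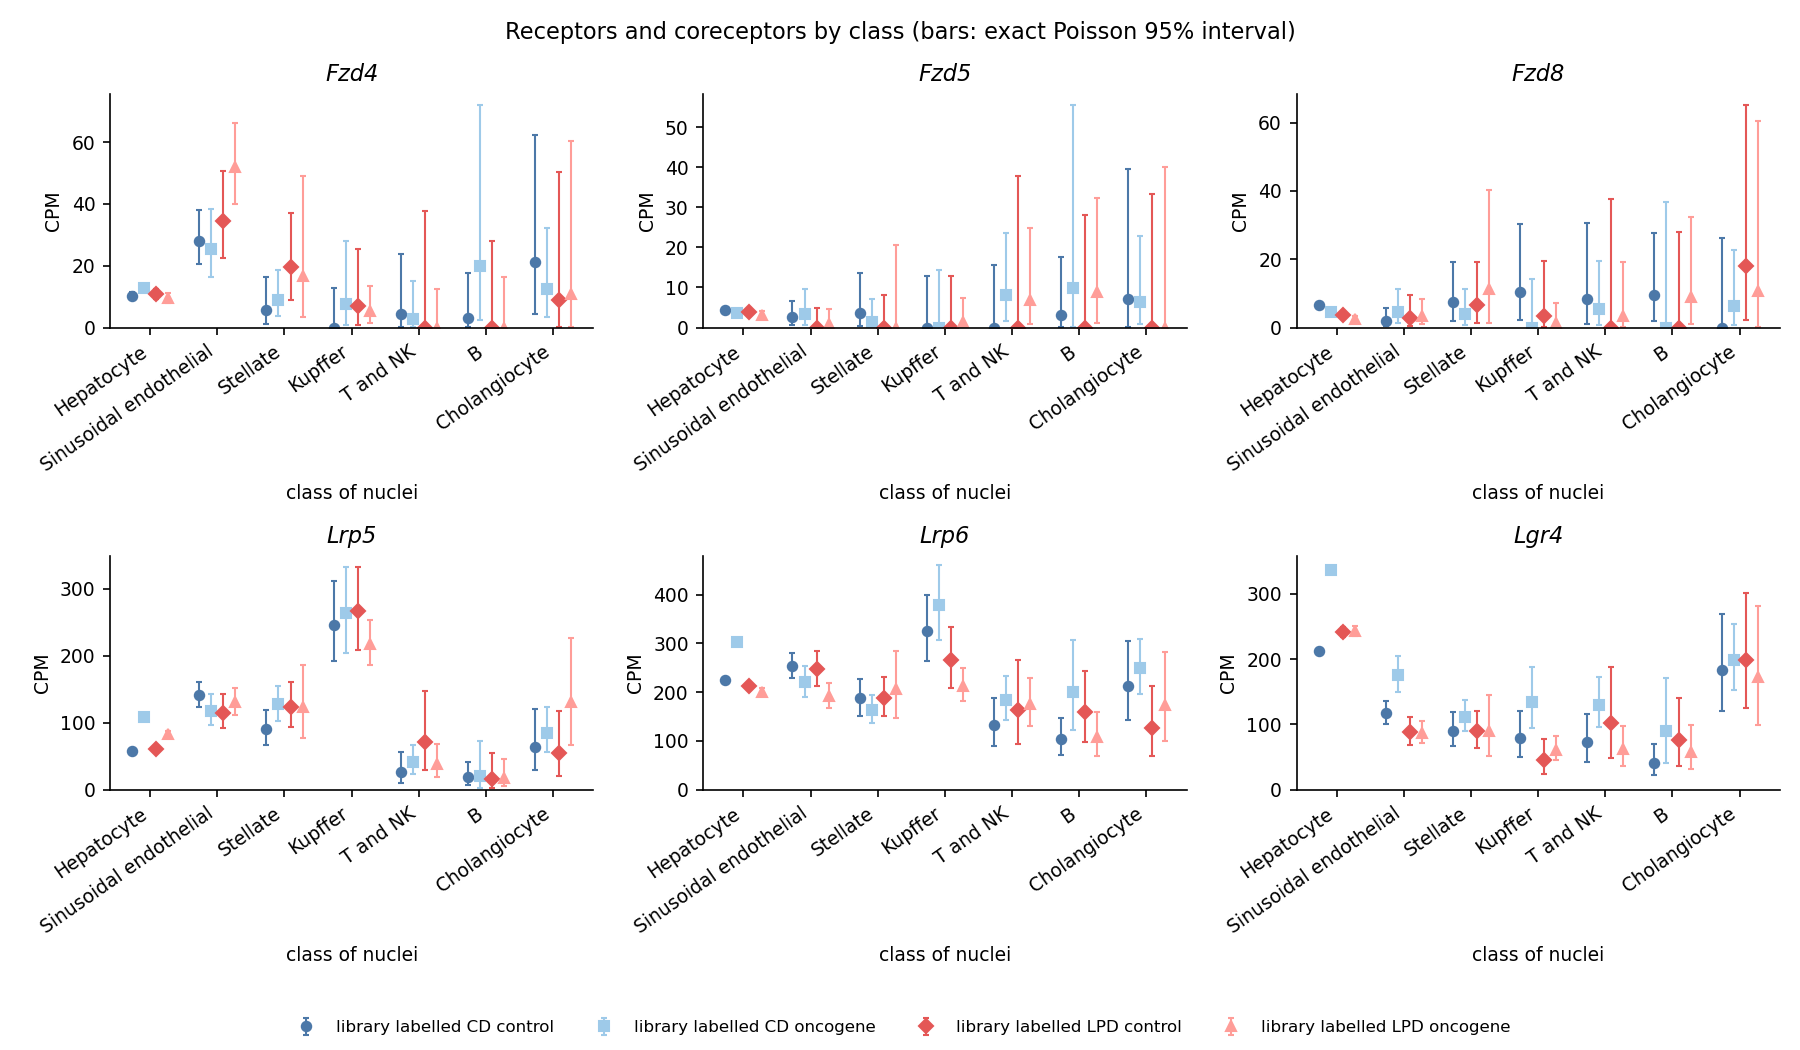
Level in CPM of Fzd4, Fzd5, Fzd8, Lrp5, Lrp6 and Lgr4 in 7 classes of nuclei, with 1 point per library and exact Poisson 95% intervals as bars. Fzd4 lies highest in sinusoidal endothelial nuclei, Lrp5 in Kupffer nuclei at 217 to 266 CPM and Lgr4 in hepatocytes at 213 to 337 CPM, while Lrp6 is seen in all classes and Fzd5 and Fzd8 rest on at most 4 UMIs a library outside hepatocytes.

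These differences between classes were set against all genes. Of the genes tested, 10.4% were at least 2-fold higher in sinusoidal than in hepatocyte nuclei in all 4 libraries, and so were Wnt2 and Rspo3, while Fzd4 just missed the limit in the library labelled CD oncogene. For stellate nuclei 9.59% were higher, with Rspo3 among them, and 10.5% lower, with Lgr4 among them. For Kupffer nuclei 10.4% were higher, with Lrp5 among them, and 9.57% lower, with Lgr4 and Fzd5 among them, the latter on at most 1 UMI in a Kupffer sum.

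The receptors differed along the hepatocyte axis. Hepatocyte nuclei were sorted by 8 pericentral and 8 periportal markers into 2507, 502, 383 and 567 pericentral and 2236, 4535, 4134 and 2304 periportal nuclei. The pericentral markers are themselves raised by Wnt signalling and by the β-catenin transgene, and the library with the most transgene UMIs had the largest pericentral share, at 40.4% against 6.55% to 12.4% in the others. The axis therefore sorts hepatocytes by their response to the pathway as well as by place. Lgr5, a second R-spondin receptor known from pericentral hepatocytes, was 84.5-, 103-, 62.4- and 71.7-fold higher in the pericentral nuclei. The sorting did not use this gene. The study reports high Lgr5 in oncogene-expressing hepatocytes too, so Lgr5 cannot separate place from response.

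Lrp5 was higher on the pericentral side. It stood at 73.8, 170, 86.6 and 116 CPM in pericentral and 40.8, 83.2, 56.1 and 73.5 CPM in periportal hepatocytes, a ratio of 1.81 (1.64 to 1.99), 2.05 (1.87 to 2.24), 1.54 (1.21 to 1.94) and 1.58 (1.34 to 1.86). Lrp6 and Lgr4 had the opposite slope. Lrp6 was at 196, 258, 174 and 151 CPM in pericentral and 251, 316, 219 and 230 CPM in periportal nuclei, and Lgr4 at 177, 246, 180 and 206 CPM against 246, 357, 251 and 267 CPM. The periportal level was 1.28, 1.22, 1.26 and 1.52 times the pericentral level for Lrp6 and 1.39, 1.45, 1.39 and 1.3 times for Lgr4, with all 8 intervals excluding 1. Among all genes tested, 17.3% were higher and 15.1% lower on the pericentral side in all 4 libraries, so slopes of this kind were common.

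Among the Frizzled genes the axis was less clear. Fzd8 was 1.71-fold (1.28 to 2.32) and 1.9-fold (1.18 to 2.96) higher in the pericentral nuclei of the CD libraries, and the ratios of 1.06 (0.21 to 3.38) and 0.84 (0.25 to 2.25) in the LPD libraries rest on 3 and 5 pericentral UMIs. For Fzd4 and Fzd5 all intervals include 1. The ligases that act with Lgr4 had steep slopes in the opposite direction to it: Rnf43 was 5.33, 3.92, 3.3 and 2.88 times and Znrf3 1.99, 2.6, 2.38 and 2.07 times as high in pericentral nuclei. Both are known targets of the pathway.

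**Figure D4:**
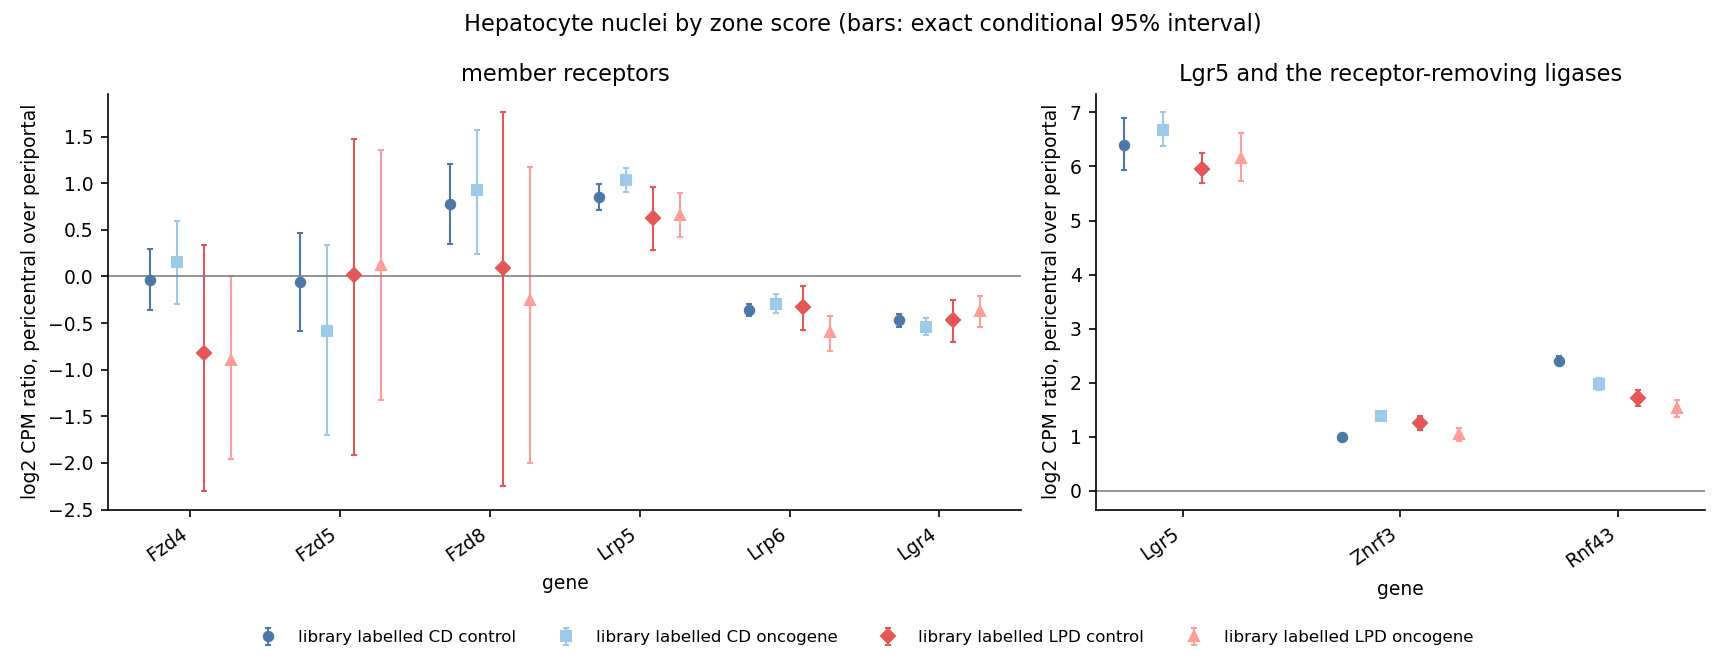
The log2 ratio of the pericentral to the periportal CPM in hepatocyte nuclei for the 6 receptor genes (left) and for Lgr5, Znrf3 and Rnf43 (right), with 1 point per library and exact conditional 95% intervals as bars. Lrp5 lies above 0 and Lrp6 and Lgr4 lie below 0 in all 4 libraries, the bars of Fzd4 and Fzd5 include 0, and all points on the right lie above 0.

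The diets were compared in 4 pairs, each LPD library with each CD library, and a direction is given where all 4 pairs share it. In sinusoidal endothelial nuclei Wnt2 was 1.48 to 10.3 times, Rspo3 3.32 to 12.6 times and Fzd4 1.23 to 2.03 times as high in the LPD libraries. The markers of the class differed along with them. The 8 sinusoidal markers summed to 5130, 3107, 5948 and 7543 CPM, in the same order of libraries as Wnt2. So did the 3 pericentral endothelial markers, at 531, 188, 1035 and 1323 CPM, and their part in the Wnt2 difference was not tested. Per 1000 UMIs of the 8 sinusoidal markers, Wnt2 gave 11.2, 6.42, 14.3 and 27.2 UMIs and Rspo3 2.93, 7.85, 13.6 and 25.2, still higher in all 4 pairs, with lowest ratios of 1.27 and 1.73. Fzd4 gave 5.48, 8.21, 5.8 and 6.87 and no longer had 1 direction. A share of 38.6% of all genes tested in these nuclei was higher in all 4 pairs, so a common direction by itself was frequent there.

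The sinusoidal Rspo3 difference between diets lay in pericentral-marked nuclei. In those nuclei the LPD libraries held 252 and 574 CPM against 29.1 and 97.2 CPM in the CD libraries, and in periportal-marked nuclei 18.3 and 10.5 CPM against 10.7 and 12.7 CPM. The pericentral-marked values rest on 52 and 211 UMIs in LPD and on 11 UMIs in each CD library. The pericentral endothelial markers of sinusoidal nuclei were at 1035 and 1323 CPM in LPD against 531 and 188 CPM in CD. Their part in the sinusoidal Rspo3 difference was not tested. Vascular endothelial Rspo3 was 5.33 to 13.9 times as high in the LPD libraries. The pericentral endothelial markers of that class were also higher there, at 3053 and 3186 CPM against 1636 and 803 CPM. In stellate nuclei Rspo3 was 1.25 to 2.15 times as high, and Lrp6 was 1.00 to 1.26 times as high. Of the genes tested in stellate nuclei, 32.1% were higher in all pairs. Per 1000 UMIs of stellate markers Rspo3 gave 59.8, 69.6, 76.8 and 88.7 UMIs, so the lowest of the 4 ratios was 1.1.

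The R-spondin receptor was lower in sinusoidal and Kupffer nuclei of the LPD libraries. In vascular endothelial nuclei it held 29.7, 111, 89.3 and 134 CPM, with no common direction. These values rest on 1, 4, 6 and 12 UMIs, too few to tell if that class differs. Lgr4 was 1.34- to 2.01-fold lower in the sinusoidal nuclei of the LPD libraries, where 16.9% of genes were lower in all pairs. In Kupffer nuclei Lgr4 was 1.3- to 2.97-fold and Lrp6 1.23- to 1.77-fold lower, where 14.7% of genes were lower. The Kupffer values of Lgr4 rest on 23, 35, 13 and 47 UMIs. In stellate nuclei Lgr4 was 1.00- to 1.25-fold lower, where 15.5% of genes were lower, its 4 intervals overlap, and per 1000 UMIs of stellate markers it gave 9.9, 17.8, 10.1 and 8.44 UMIs with no common direction. The hepatocyte markers were also lower in the sinusoidal nuclei of the LPD libraries, at 9522 and 9651 CPM against 11096 and 12044 CPM. In Kupffer nuclei they were at 8495 and 9788 CPM against 9795 and 10465 CPM. The part of hepatocyte RNA in the Lgr4 and Lrp6 differences was not tested. In hepatocytes themselves Lgr4 had no common direction, at 0.717 to 1.14 times.

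In hepatocytes 23.3% of genes were lower in all 4 pairs, and Fzd8 and Lrp6 were 2 of them. Fzd8 was 1.2- to 2.6-fold and Lrp6 1.06- to 1.5-fold lower in the LPD libraries. The hepatocytes were not matched for zone here, and the part of zone in these differences was not tested. Fzd4, Fzd5, Lrp5 and Lgr4 lay on both sides of 1. Lrp5 was highest in the library labelled CD oncogene and lowest in that labelled CD control, so that the LPD libraries lay between them.

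Between the labels of the injection, Wnt2 went opposite ways in the 2 diets. Wnt2 in sinusoidal nuclei was 2.89-fold lower in the library labelled CD oncogene than in that labelled CD control, where 24.1% of genes were at least 1.5-fold lower. In the LPD libraries it was 2.41-fold (1.83 to 3.23) higher under the oncogene label, where 11.2% of genes were at least 1.5-fold higher, Rspo3 at 2.35-fold (1.76 to 3.17) and Fzd4 at 1.5-fold (0.937 to 2.47) among them. The sinusoidal markers were lower in the first pair, at 3107 against 5130 CPM, and higher in the second, at 7543 against 5948 CPM. The pericentral endothelial markers in these nuclei were at 188 against 531 CPM in the first pair and 1323 against 1035 CPM in the second. When the CD libraries are named by where the transgene UMIs were found, Wnt2 was higher in the library with transgenes in both diets. Rspo3 in sinusoidal nuclei was 1.62-fold (0.861 to 3.04) higher under the label CD oncogene, an interval that includes 1, so it was higher under the oncogene label in both diets and would be opposite with the CD labels exchanged. In stellate nuclei it was 0.808 (0.689 to 0.948) and 1.39 (1.14 to 1.68) times as high under the oncogene label in CD and LPD. Per 1000 UMIs of stellate markers the CD direction turned, at 59.8 UMIs under CD control and 69.6 under CD oncogene.

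The hepatocyte receptors differed mainly between the CD libraries. Under the label CD oncogene, Lrp5 was 1.86-fold (1.77 to 1.96), Lgr4 1.59-fold (1.54 to 1.63) and Lrp6 1.35-fold (1.31 to 1.39) as high as under CD control, and Fzd8 0.696 times (0.577 to 0.838). Rspo3 in hepatocytes was 1.72-fold (1.11 to 2.72) higher, on 63 against 32 UMIs and at 1.37 against 0.799 CPM. Stellate nuclei of these libraries held 438 and 542 CPM, and the part of stray RNA in the hepatocyte difference was not tested. Between the CD labels 12.5% of genes were at least 1.5-fold higher in hepatocytes, and Lrp5, Lgr4 and Rspo3 were among them. The corresponding LPD ratios were 1.36 (1.25 to 1.48) for Lrp5, 1.00 (0.959 to 1.05) for Lgr4, 0.949 (0.903 to 0.997) for Lrp6 and 0.665 (0.427 to 1.02) for Fzd8. As labelled, the ratio was above 1 for Lrp5 and below 1 for Fzd8 in each diet, with an LPD interval for Fzd8 that includes 1. With the CD labels exchanged both would turn in CD, Lrp5 to a log2 ratio of -0.90 against 0.44 in LPD. The pericentral markers of hepatocytes summed to 2779 CPM under CD control and 1415 CPM under CD oncogene. From the first to the second label, Lgr4 went from 177 to 246 CPM in pericentral and 246 to 357 CPM in periportal nuclei. Fzd8 went from 8.02 to 6.84 and from 4.68 to 3.59 CPM. Lrp5 and Lrp6 also kept their direction within each zone. The part of zone in the ratios was not tested.

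Within the library labelled CD control, the 77 hepatocyte nuclei with a transgene UMI could be set against the 6135 without. Lrp5 stood at 89.1 against 57.6 CPM, a ratio of 1.55 (1.19 to 1.98), and Lgr4 at 170 against 214 CPM, a ratio of 0.796 (0.661 to 0.95), at median depths of 7155 and 5425 UMIs. Lrp6 was at 197 against 224 CPM, with an interval of 0.741 to 1.04 for the ratio. These nuclei were not matched for zone. In the same library the pericentral level was 1.81 times the periportal level for Lrp5 and 0.722 times for Lgr4. The part of zone in the transgene ratios was not tested.

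Of 66 other genes of the pathway, few ligands and most of the relay were measurable. A gene was counted when it reached 10 UMIs and 5 CPM in a class of a library. Of 17 other Wnt ligands 2 did so, Wnt4 and Wnt5b, and Wnt5b was highest in hepatocytes at 29.2, 33, 46.2 and 60.2 CPM. Of 5 other R-spondins and Lgr receptors 2 did so. Rspo1, a second R-spondin, was highest in mesothelial nuclei, from the surface lining of the liver, at 447, 189, 334 and 341 CPM from 57 UMIs in all. Lgr5 was highest in hepatocytes at 97.5, 54, 77.9 and 94.2 CPM. Among the other Frizzled receptors Fzd6 and Fzd7, 2 of 7, reached the limits.

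Of 9 other coreceptors and alternative receptors 8 reached the limits, 4 of them highest in stellate nuclei. Ror1, a receptor of Wnt5a, was highest in cholangiocytes at 1212, 1087, 388 and 672 CPM, and Gpc3, a surface proteoglycan, in mesothelial nuclei at 949, 818, 637 and 1172 CPM. Gpc4, its relative, was highest in stellate nuclei at 520, 333, 681 and 733 CPM, as was Ryk, a further Wnt receptor, at 269, 197, 311 and 291 CPM. Both genes for ligand secretion were measured, and Wls, the carrier that brings Wnt proteins to the cell surface, was highest in mesothelial nuclei at 242, 189, 212 and 384 CPM. Of the 2 ligases, Znrf3 was highest in T and NK nuclei at 433, 297, 510 and 669 CPM and Rnf43 in hepatocytes at 274, 121, 207 and 143 CPM.

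Of 17 inhibitors 4 reached the limits: Dkk3, Frzb, Notum and Kremen1. Frzb, a secreted Wnt binder, was highest in stellate nuclei at 57.9, 47.5, 32.6 and 28 CPM, and Kremen1, a Dickkopf receptor, in mesothelial nuclei on 10 UMIs in all. All 7 genes of the cytoplasmic relay reached the limits and were spread over 7 classes. Csnk1a1, the kinase that primes β-catenin, was highest in stellate nuclei at 445, 348, 405 and 408 CPM, Apc, the scaffold of its destruction complex, in sinusoidal nuclei at 274, 222, 323 and 379 CPM, Gsk3b, its second kinase, in cholangiocytes at 305, 290, 298 and 369 CPM, and Axin1, a second scaffold, in T and NK nuclei at 132, 78.4, 61.3 and 127 CPM.

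The genes most like each member were sought over 28 profiles, the 7 classes with at least 50 nuclei in each library, among 14300 genes. The profiles share libraries and the RNA of hepatocytes, so the correlations are descriptions. Nos3 (r = 0.907), Col13a1 (0.899) and Tmem132e (0.885) were most like Wnt2, and Rnf165 (0.921), Art3 (0.917) and Nr2f1 (0.915) most like Rspo3. For Lrp5 they were Dst (0.912), Dip2c (0.885) and Pld2 (0.863), and for Lgr4 Grb14 (0.906), Sdc2 (0.906) and Chdh (0.899). Fzd4 (Arhgef12, Pard3b and Fam135a), Fzd5 (Nudt2, Tstd3 and Pard3bos3), Fzd8 (Polr1b, Mthfsd and Zc3h10) and Lrp6 (Rps6kc1, F830016B08Rik and 0610012G03Rik) had lower best correlations, from 0.730 to 0.802. Wnt9b had too few UMIs for this measure.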

How the data were processed

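Nuclei of frozen mouse liver were sequenced with a droplet 3′ method, 1 library per group, and groups were taken from the sample labels. The authors deposited raw UMI counts per gene and nucleus barcode, made per the file headers with Cell Ranger 9.0.1. Per the study's methods, reads were aligned to mm10 with human c-MET and CTNNB1 added, and the submitters' notes name Seurat 5.

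From these counts, nuclei with 200 to 7000 genes and at most 21% mitochondrial UMIs were kept, following the study. A nucleus entered a class other than hepatocytes when at least 2 distinct markers, and at least 20 marker UMIs per 10000, were present. Their density had to be at least 2-fold above that of any other such class, with endothelial nuclei taken as 1 class. Hepatocyte markers did not enter this comparison, so it did not leave out nuclei mixed with hepatocyte RNA. Endothelial nuclei were called sinusoidal or vascular by the list with more UMIs. Hepatocytes needed at least 4 of 8 markers and under 5 UMIs per 10000 of other classes. Of the nuclei, 152 to 291 per library lay just below and 96 to 266 just above the density limit. These limits were set once the counts were known, and the 9 genes and all gene lists were chosen with earlier results of these data known. Scrublet marked 1 nucleus in all as a doublet by its automatic threshold and so did not work, and leaving out the 8% highest scores served as an alternative.

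CPM carry exact Poisson, shares exact binomial (Clopper-Pearson) and ratios exact conditional 95% intervals. A floor is 3 counts. Hepatocyte nuclei with at least 5 zone-marker UMIs were called periportal up to 25% and pericentral from 75% pericentral UMIs. Genes entered the shares of all genes with at least 10 UMIs in the sums compared. Named besides the 9 genes were, for each with at least 100 UMIs, the 3 genes of highest Pearson correlation of log2(CPM + 1), and up to 4 other pathway genes per list with at least 20 CPM in a class in all 4 libraries, in the order of their highest CPM. The ratio and interval code was tested on simulated data. Python 3.11.15, numpy 2.4.6, scipy 1.17.1, pandas 2.3.3, scanpy 1.11.5 and matplotlib 3.10.9 were used. The alternatives are given in the closing section. The scaling by a class's own markers and the use of pericentral- or periportal-marked sinusoidal nuclei alone were chosen after seeing the data.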

Additional observations from a re-analysis of the deposited data

Results flagged for a closer look

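Between the oncogene and the control label, 3 levels went opposite ways in the 2 diets, with 1 library per group, so that the difference was not tested. Wnt2 in sinusoidal endothelial nuclei had a log2 ratio of -1.53 in CD and 1.27 in LPD, Rspo3 in stellate nuclei -0.31 and 0.47, and Lrp6 in hepatocytes 0.43 and -0.08. The CD libraries are the ones in which the transgene UMIs go against the labels. With these labels exchanged, all 3 had the same direction in both diets, whereas Rspo3 in sinusoidal nuclei, higher under the oncogene label in both diets at 0.70 and 1.23, would be opposite at -0.70 in CD. Per 1000 UMIs of stellate markers, stellate Rspo3 was higher under the oncogene label in both diets as labelled, at 69.6 against 59.8 UMIs in CD and 88.7 against 76.8 in LPD.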

How the results depend on the processing

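No paired analysis was possible because the groups compared share fewer than 2 replicate numbers, and no test was run, although classes and zones were compared within each library. Of 147 recalculations of 37 results, 110 moved by less than the counting error or the spread used, 30 moved and 7 changed direction, 5 of them by the exchange of the CD labels, and the cause of the rest was not tested. Sinusoidal Rspo3 between the CD labels counts among those that moved, since its interval includes no change. All values are log2 ratios unless given as percent. With clusters in place of the marker gate, the sinusoidal over hepatocyte ratio of Wnt2 was 6.72 (7.36 in the report's setting) and of Lgr4 -0.83 (-1.19), the stellate over hepatocyte ratio of Rspo3 8.61 (9.37), and the Kupffer over hepatocyte ratio of Lrp5 1.10 (1.72). Vascular endothelial nuclei formed no cluster of their own, so that alternative gave no value for them. The sinusoidal over hepatocyte ratio of Lgr4 was -1.82 without the highest Scrublet scores, -0.91 with no nuclei under 1000 UMIs and -1.69 as a mean over nuclei, a mean that gave 8.83 for Rspo3. Size factors by the median of ratios gave 1.53 for Lrp5 in Kupffer nuclei, 0.46 (0.71) for stellate Rspo3 in LPD over CD, and, for the CD labels in hepatocytes, 0.82 (0.67) for Lgr4, 1.05 (0.90) for Lrp5 and 0.59 (0.43) for Lrp6. Leaving out 1 library at a time gave 1.36 to 1.85 for Fzd4 in sinusoidal over hepatocyte nuclei, 9.13 to 9.72 for Rspo3 in stellate nuclei and -0.12 to 0.11 for Lrp6 in sinusoidal over hepatocyte nuclei.

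Scaled by the class's own markers, LPD over CD became 1.21 (1.96) for Wnt2 and 1.95 (2.70) for Rspo3 in sinusoidal nuclei and 0.36 for Rspo3 in stellate nuclei. Fzd4 in sinusoidal nuclei turned to -0.09 (0.66), and stellate Rspo3 between the CD labels to 0.22 (-0.31). In pericentral-marked sinusoidal nuclei alone Wnt2 gave 1.40, and in periportal-marked nuclei alone Rspo3 gave 0.25. Exchanging the CD labels turns every CD contrast by construction, to 1.53 for Wnt2 and -0.70 for Rspo3 in sinusoidal nuclei, 0.31 for stellate Rspo3, and -0.67, -0.90 and -0.43 for Lgr4, Lrp5 and Lrp6 in hepatocytes. Without Cdh13 the pericentral over periportal ratio of sinusoidal Rspo3 was 2.58 (3.48), and with nuclei split into equal parts by zone score that of hepatocyte Lgr4 was -0.33 (-0.46). Thinning to 1000 UMIs, or not thinning, gave mean shares of 8.28% and 10.1% for Wnt2 in sinusoidal nuclei (4.89% at 500 UMIs), 39.5% and 48.4% for Rspo3 in stellate nuclei (25.6%) and 22.1% and 54.9% for Lgr4 in hepatocytes (11.4%). Depth limits Wnt9b, Fzd5 and Fzd8 outside hepatocytes and all vascular endothelial values of the CD libraries, which rest on 25 and 24 nuclei.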

Other observations

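The nuclei left out of every class also held the ligands. Rspo3 stood at 11.4, 7.08, 19.1 and 15.6 CPM in them, from 109, 89, 86 and 96 UMIs, and Wnt2 at 1.57, 0.795, 3.32 and 3.57 CPM, from 15, 10, 15 and 22 UMIs. Lgr4 was at 203, 310, 215 and 225 CPM there, close to its hepatocyte levels.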
